A study of Ovis aries with 41 samples.

Results

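The 10 HOXA cluster genes HOXA2, HOXA3, HOXA4, HOXA5, HOXA6, HOXA7, HOXA9, HOXA10, HOXA11 and HOXA13 were followed along the tail skin of adult Improved Jezersko–Solčava rams, at the tail base, the mid-tail and the tail tip. They were taken by symbol as 10 of the 31182 RefSeq genes in the count table, and all 10 passed the filter on low counts. HOX genes encode homeodomain transcription factors that give cells of the embryo their position along the body axis. They lie in clusters, and in vertebrate embryos the order of the genes along a cluster mirrors the order in which they are switched on and the level of the body at which they act, from the head end (HOXA2) to the tail end and the tips of the limbs (HOXA13). Skin fibroblasts of adult mammals keep a HOX expression pattern that reflects the body site from which they came, and HOXA13 is known as a mark of distal skin in human.

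All rams were homozygous at HOXB13, a posterior HOX gene of another cluster, with 4 A/A rams carrying the ancestral short-tail allele and 3 D/D rams carrying the derived long-tail allele. Skin was taken after death from each ram at all 3 positions, so that the positions could be compared within rams. Because D/D tails were longer, D/D mid-tails and tips lay farther from the base than those of A/A rams. The RNA was sequenced as 41 libraries, numbered as a pair per ram and position except for a single library at the mid-tail of D/D ram 871869. The labels do not say whether the libraries of a pair came from separate biopsies, so their counts were added into 21 ram sums, and each p-value below measures the spread between rams. The ram sums held 17132063 to 37645752 counts. Expression is given as CPM, counts per 1000000 counts of a ram sum after scaling for library composition, and values of single rams are listed in the order 835507, 871772, 871784 and 871932 for A/A and 871787, 871868 and 871869 for D/D. In whole skin, fewer cells of a type and less RNA per cell cannot be told apart.

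The libraries carried the markers of skin. The summed level of 9 keratinocyte markers was 15744.6 to 45937.3 CPM and that of 10 fibroblast markers 3619.56 to 21492.4 CPM over the ram sums (6028.51 at the lowest without ram 835507), with no marker of either list at 0. A/A ram 835507 stood apart: its wool follicle markers summed to 12970 CPM at the base, 3090 CPM at the mid-tail and 971 CPM at the tip. The other 6 rams had 12684 to 34258 CPM for that list over all positions, and the counts of members called at the tip are also given without ram 835507.

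On ARS-UI_Ramb_v3.0 the cluster is on chromosome 4. In order of coordinate, HOXA13 is annotated at chr4:70422486-70435575, HOXA11 at chr4:70437496-70441208, HOXA10 at chr4:70442953-70452265 and HOXA9 at chr4:70457330-70460460. HOXA7 follows at chr4:70466113-70469126, HOXA6 at chr4:70470180-70478607, HOXA5 at chr4:70479029-70505523, HOXA4 at chr4:70491806-70494245, HOXA3 at chr4:70470180-70514958 and HOXA2 at chr4:70519304-70522514. The annotated span of HOXA3 covers those of HOXA4, HOXA5 and HOXA6, and that of HOXA5 covers HOXA4. Reads were counted by strand. How reads in a stretch shared on one strand were assigned is not given in the sources used here. The split of counts among these 4 genes is therefore uncertain. HOXA2, HOXA3, HOXA5, HOXA6, HOXA10 and HOXA13 also overlap long non-coding genes.

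The end of the cluster that carries HOXA9 to HOXA13 rose towards the tail tip in both genotypes or in A/A, and the end that carries HOXA2 to HOXA4 had no call. At the tip against the base, edgeR's quasi-likelihood test with Benjamini-Hochberg adjustment called 6 of the 10 members higher in A/A rams (HOXA5, HOXA6, HOXA9, HOXA10, HOXA11 and HOXA13), where 0.843% of all genes tested were called higher. It called 2 of the 10 members higher in D/D rams (HOXA10 and HOXA13), where 0.118% of all genes were. With the mean of both genotypes' changes, called all rams here, it called the same 6 members as in A/A, where 1.89% of all genes were called higher. No member was called lower in any of these comparisons. The median log2 fold-change of the 10 members was 0.84 in A/A, 0.53 in D/D and 0.68 in all rams, against -0.02 over all genes in all rams. The members share libraries and a cluster, so they are not independent replicates of one another.

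**Figure D1:**
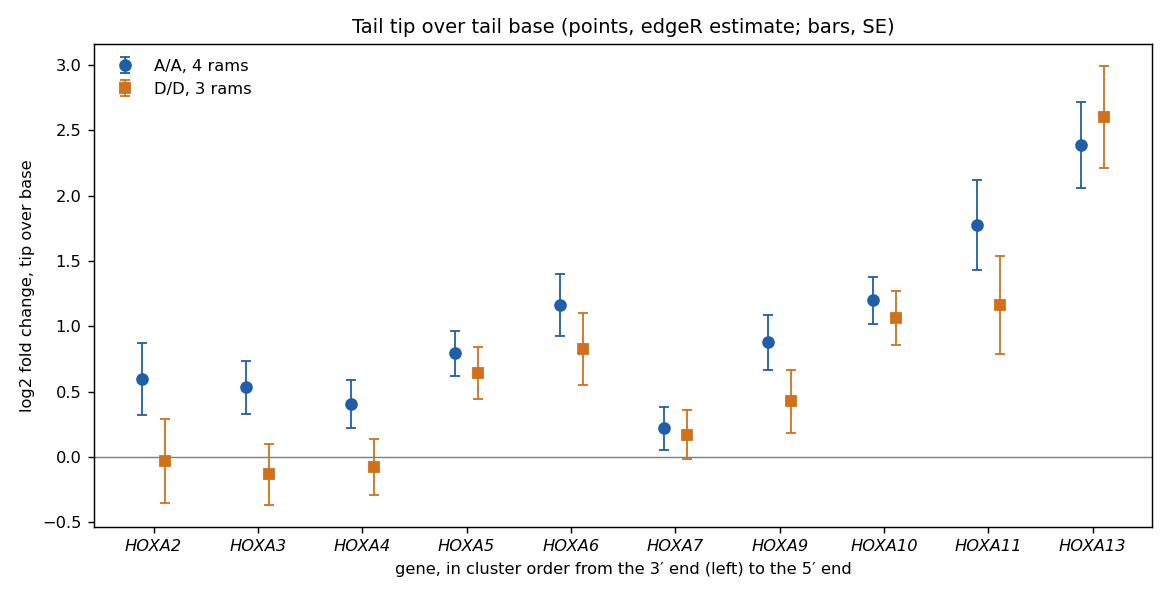
Log2 fold-change of the 10 HOXA genes at the tail tip over the tail base, in cluster order, for A/A rams (n = 4) and D/D rams (n = 3) from the fit over 21 ram sums; points are estimates and bars 1 standard error. The changes are largest at HOXA13 (2.39 in A/A, 2.61 in D/D) and lie between -0.13 and 0.60 for HOXA2, HOXA3 and HOXA4.

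HOXA13, the last gene of the cluster, patterns the digits and the genital tubercle in mouse. In A/A rams it was at 1.24, 1.49, 0.432 and 0.930 CPM at the base, 3.76, 4.07, 1.99 and 2.24 CPM at the mid-tail and 7.26, 4.40, 2.94 and 6.15 CPM at the tip. In D/D rams it was at 0.329, 0.856 and 1.30 CPM at the base, 4.37, 4.55 and 4.12 CPM at the mid-tail and 4.24, 7.72 and 3.46 CPM at the tip. Every tip value was above every base value, over both genotypes, and the lowest mid-tail value (1.99 CPM) was also above the highest base value (1.49 CPM). The tip was 5.24-fold above the base in A/A (log2 2.39 ± 0.33 SE, adjusted p = 0.00284) and 6.09-fold above it in D/D (log2 2.61 ± 0.39, adjusted p = 0.00758). Over all rams the fold was 5.64 (2 SE on either side giving 3.96 to 8.05, adjusted p = 9.54e-05), and tip exceeded base in 7 of 7 rams.

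HOXA11 shapes the forearm and the uterus in mouse. In A/A rams it was at 1.15, 1.96, 0.463 and 1.29 CPM at the base, 5.23, 4.03, 0.630 and 2.11 CPM at the mid-tail and 3.38, 4.23, 2.09 and 5.86 CPM at the tip. In D/D rams it was at 1.40, 2.17 and 1.67 CPM at the base, 2.96, 3.52 and 3.15 CPM at the mid-tail and 3.69, 5.99 and 2.46 CPM at the tip. Within each genotype all tip values lay above all base values, while the lowest A/A tip (2.09 CPM, ram 871784) was below the highest D/D base (2.17 CPM). The change was called in A/A (3.43-fold, log2 1.78 ± 0.34 SE, adjusted p = 0.0176) and in all rams (2.77-fold, adjusted p = 0.00396). In D/D it was 2.24-fold and did not pass (log2 1.16 ± 0.38, adjusted p = 0.181). A/A ram 871784 was the lowest A/A ram for HOXA11 at all 3 positions.

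HOXA10 acts in the lumbar vertebrae and the uterus of mouse. In A/A rams it was at 6.44, 7.32, 3.70 and 4.49 CPM at the base, 9.52, 10.8, 4.86 and 7.12 CPM at the mid-tail and 12.4, 12.9, 9.68 and 13.9 CPM at the tip. In D/D rams it was at 4.44, 8.79 and 6.50 CPM at the base, 8.45, 9.22 and 7.03 CPM at the mid-tail and 12.99, 16.9 and 11.03 CPM at the tip. As for HOXA13, all 7 tip values lay above all 7 base values, and base and mid-tail overlapped. HOXA10 was 2.30-fold higher at the tip in A/A (log2 1.20 ± 0.18 SE, adjusted p = 0.00371) and 2.09-fold higher in D/D (log2 1.06 ± 0.21, adjusted p = 0.0340).

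HOXA9, a regulator of blood stem and progenitor cells as well as of the axial skeleton, held 32012 of the 68082 counts of the 10 genes. In A/A rams it was at 56.5, 32.2, 21.2 and 41.2 CPM at the base, 83.1, 53.7, 56.5 and 52.2 CPM at the mid-tail and 78.3, 65.0, 53.9 and 68.4 CPM at the tip. In D/D rams it was at 27.8, 56.9 and 51.4 CPM at the base, 69.8, 62.4 and 50.5 CPM at the mid-tail and 67.3, 57.5 and 56.1 CPM at the tip. Base and tip overlapped in both genotypes, through the base of A/A ram 835507 (56.5 CPM) and the base of D/D ram 871868 (56.9 CPM). The change was called in A/A (1.84-fold, log2 0.88 ± 0.21 SE, adjusted p = 0.0463) and in all rams (1.57-fold, log2 0.65 ± 0.16, adjusted p = 0.0291), and was 1.34-fold in D/D (adjusted p = 0.499). The call in all rams held in 1 of the 7 fits that each left out 1 ram (without 835507; adjusted p = 0.0272 to 0.144 over the 7), and the call in A/A in 1 (adjusted p = 0.0272 to 0.158).

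**Figure D2:**
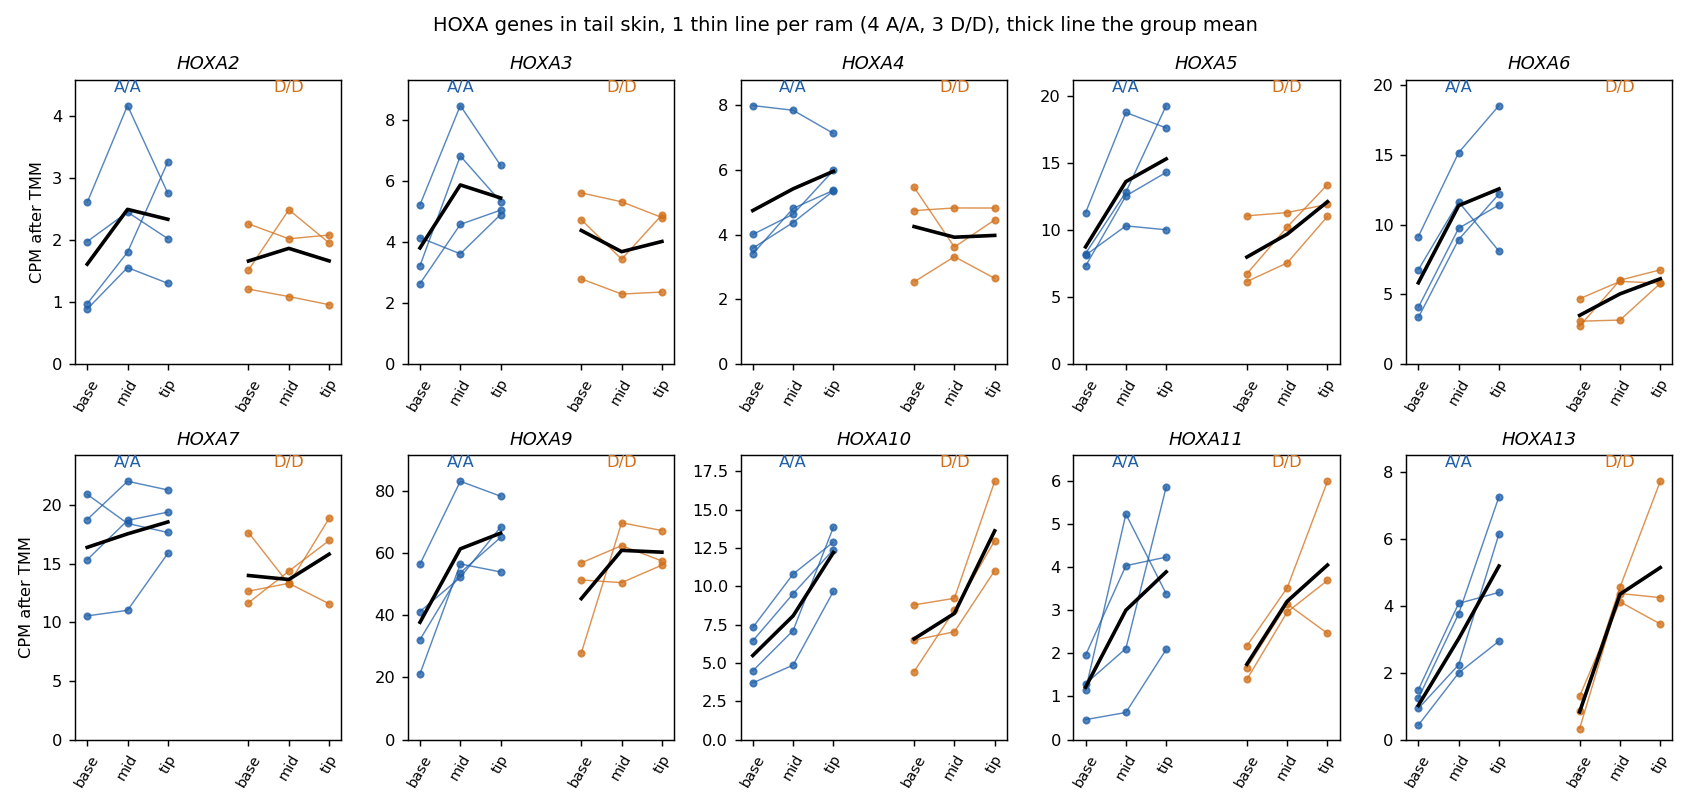
Expression of each of the 10 HOXA genes (CPM, 1 panel a gene, each with its own axis) by tail position, 1 thin line a ram and a thick line for the group mean, for 4 A/A and 3 D/D rams. The HOXA10 and HOXA13 lines end above every base value, whereas the lines of all other members overlap between base and tip over the rams of both genotypes.

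In the middle of the cluster HOXA5 and HOXA6 were called in A/A and all rams and HOXA7 was not. HOXA6, which acts in the thoracic region of the mouse embryo, was at 9.14, 4.06, 3.33 and 6.75 CPM at the base, 15.2, 9.73, 8.92 and 11.6 CPM at the mid-tail and 18.5, 11.4, 12.2 and 8.09 CPM at the tip in A/A rams. In D/D rams it was at 2.71, 4.68 and 3.06 CPM at the base, 6.01, 5.92 and 3.15 CPM at the mid-tail and 6.75, 5.80 and 5.77 CPM at the tip. The tip lay above the base in 7 of 7 rams. HOXA6 rose 2.24-fold in A/A (log2 1.16 ± 0.24 SE, adjusted p = 0.0232) and 1.99-fold in all rams (adjusted p = 0.00564), and was 1.77-fold higher in D/D without passing (log2 0.83 ± 0.28, adjusted p = 0.200). HOXA6 was also the member that differed most between the libraries of one ram and position, by a median of 1.55-fold over 20 pairs.

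HOXA5, which is needed for lung development and for the neck and upper chest skeleton in mouse, was at 11.3, 8.25, 7.31 and 8.13 CPM at the base, 18.8, 12.8, 12.6 and 10.3 CPM at the mid-tail and 17.6, 19.3, 14.3 and 10.03 CPM at the tip in A/A rams. In D/D rams it was at 6.74, 11.1 and 6.16 CPM at the base, 10.2, 11.3 and 7.55 CPM at the mid-tail and 13.4, 11.9 and 11.03 CPM at the tip. Base and tip overlapped through the base of ram 835507 and the tip of ram 871932 in A/A and through the base of ram 871868 in D/D. HOXA5 rose 1.73-fold in A/A (log2 0.79 ± 0.17 SE, adjusted p = 0.0319) and 1.64-fold in all rams (adjusted p = 0.00583), with 1.56-fold in D/D (adjusted p = 0.164).

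HOXA7, a repressor of differentiation genes in human keratinocytes, lies between HOXA6 and HOXA9 and was not called. It was at 15.9 to 21.3 CPM at the tip and 10.5 to 20.9 CPM at the base in A/A, and at 11.6 to 18.9 CPM at the tip and 11.7 to 17.7 CPM at the base in D/D. Its change over all rams was 1.14-fold, with an interval of 2 SE on either side of 0.963 to 1.36. The like interval was 1.37 to 1.97 for HOXA5, 1.55 to 2.56 for HOXA6 and 1.26 to 1.96 for HOXA9. The HOXA9 interval overlapped that of HOXA7. The difference between genes was not tested.

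The genes nearest the other end of the cluster were not called at either tip. HOXA4, which acts on the cervical and thoracic vertebrae in mouse, was at 5.35 to 7.13 CPM at the tip and 3.40 to 7.99 CPM at the base in A/A, and at 2.65 to 4.82 CPM at the tip and 2.54 to 5.46 CPM at the base in D/D. HOXA3, which is needed for the thymus and parathyroid in mouse, was at 4.89 to 6.50 CPM at the tip and 2.63 to 5.21 CPM at the base in A/A, and at 2.35 to 4.88 CPM at the tip and 2.78 to 5.60 CPM at the base in D/D. HOXA2, which sets the identity of the second pharyngeal arch, was at 1.30 to 3.26 CPM at the tip and 0.886 to 2.60 CPM at the base in A/A, and at 0.956 to 2.08 CPM at the tip and 1.21 to 2.26 CPM at the base in D/D. Base and tip overlapped for all 3 genes in both genotypes. Their log2 changes were 0.60 ± 0.28, 0.53 ± 0.20 and 0.41 ± 0.18 (SE) for HOXA2, HOXA3 and HOXA4 in A/A (adjusted p = 0.346, 0.226 and 0.327) and -0.03 ± 0.32, -0.13 ± 0.23 and -0.08 ± 0.21 in D/D. At an unadjusted p below 0.05 these 3 were among 9 of 10 members in A/A, against 2799 of 19444 genes. In D/D none of the 3 was among the 5 of 10 members below it, against 2391 of 19444 genes. Across the 10 genes, place in the cluster and log2 change at the tip correlated with a Spearman rho of 0.745 for the A/A rams and 0.867 for the D/D rams, a description over genes that share libraries and neighbours.

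Some of these counts rested on few rams. In A/A the number of members called higher at the tip was 3 of 10 without A/A ram 835507, 871772 or 871784 (HOXA10, HOXA11 and HOXA13 in each case) and 3 without 871932 (HOXA6, HOXA10 and HOXA13). In D/D it was 0 without ram 871787 or 871868, 1 (HOXA13) without 871869 and 2 without 835507. In all rams it was 3 without ram 871787 (HOXA10, HOXA11 and HOXA13), 6 without 835507 and 4 or 5 without any other ram. Over the 7 fits that left out 1 ram, HOXA10, HOXA11 and HOXA13 were called in all 7 for all rams, HOXA6 in 6 (not without 871787) and HOXA5 in 5 (not without 871787 or 871869). In A/A, HOXA10 and HOXA13 were called in all 7, HOXA11 in 6, HOXA6 in 4 and HOXA5 in 1 (adjusted p = 0.0410 to 0.133). An exact sign-flip test over the 7 rams, two-sided on log2(CPM + 0.5), gave p = 0.0156 for HOXA5, HOXA6, HOXA9, HOXA10, HOXA11 and HOXA13, the smallest p it can give, among 30 such tests of 10 members and 3 steps.

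The groups of rams did not overlap between tip and base for 3 of 10 members in A/A (HOXA10, HOXA11 and HOXA13), where 1.48% of all genes were higher at the tip without overlap. They did not overlap for 4 of 10 in D/D (HOXA6, HOXA10, HOXA11 and HOXA13), where 7.56% of all genes did likewise, and for HOXA10 and HOXA13 in all rams, where 0.211% did. The 3 D/D rams make such separation more frequent over all genes than the 4 A/A rams.

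The base-to-tip change was also taken in its steps at the mid-tail, and whether the steps differ between members was not tested. At the mid-tail against the base HOXA13 was the only member called in all rams, 4.03-fold higher (log2 2.01 ± 0.26 SE, adjusted p = 0.00308), where 0.0771% of all genes were called higher. It was called in all 7 fits that left out 1 ram. Within a genotype no member was called at the mid-tail: HOXA13 was 3.05-fold higher in A/A (log2 1.61 ± 0.33, adjusted p = 0.126) and 5.32-fold higher in D/D (log2 2.41 ± 0.39, adjusted p = 0.135). Few genes at all were called there, 0.0257% of genes in A/A and 0% in D/D. At an unadjusted p below 0.05 the count was 8 of 10 members in A/A, against 10.1% of all genes, and 2 of 10 in D/D (HOXA11 and HOXA13), against 6.74%.

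**Figure D3:**
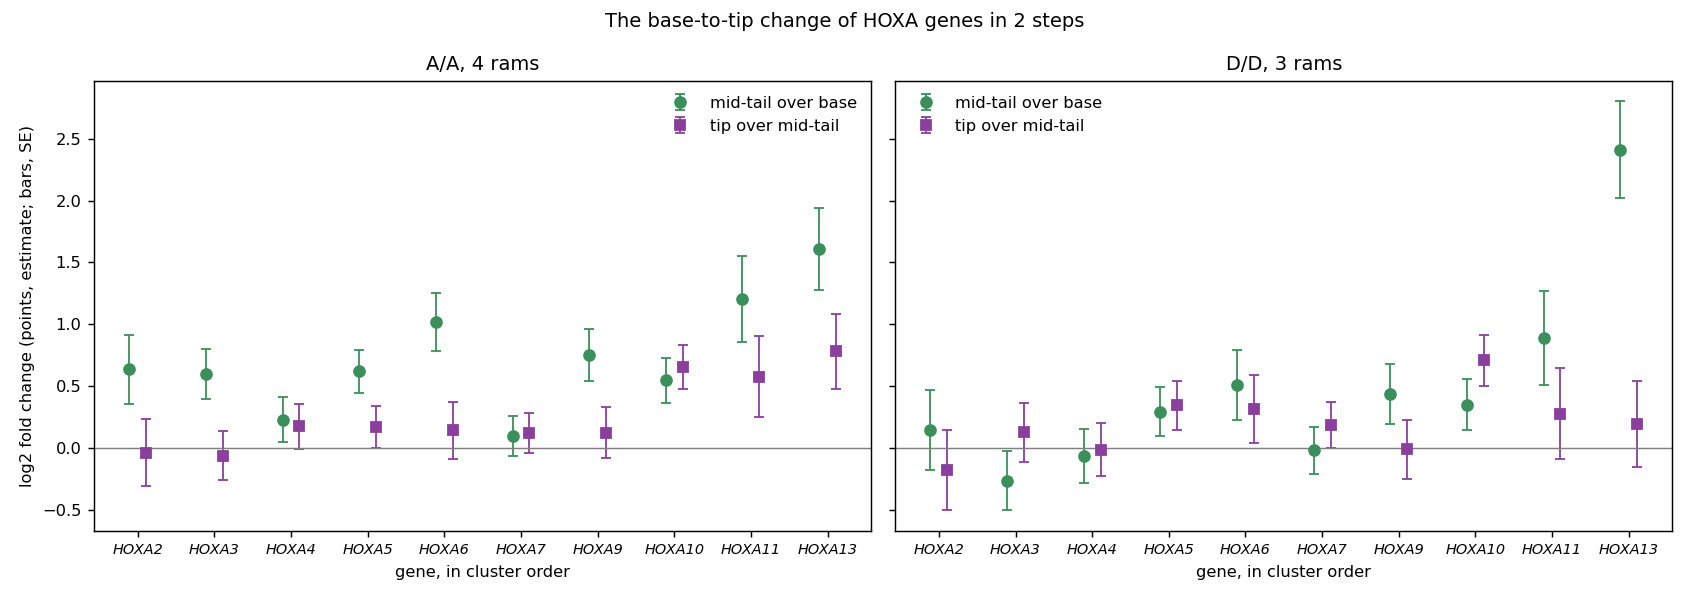
Log2 fold-change ± 1 standard error of the 10 HOXA genes for mid-tail over base (circles) and for tip over mid-tail (squares), in cluster order, with A/A rams (n = 4) in the left panel and D/D rams (n = 3) in the right. HOXA13 has its larger estimate in the first step (1.61, then 0.78, in A/A and 2.41, then 0.19, in D/D), and HOXA10 in the second (0.55, then 0.65, in A/A and 0.35, then 0.71, in D/D).

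Among the members called at the tip, HOXA11, HOXA6, HOXA9 and HOXA5 also had their larger estimates in the first step in all rams. These were log2 1.04 ± 0.26, 0.76 ± 0.18, 0.60 ± 0.16 and 0.46 ± 0.13 (SE), and none of them passed (adjusted p = 0.124, 0.112, 0.162 and 0.192). From mid-tail to tip no member was called in A/A, D/D or all rams, and the shares over all genes were 0%, 0% and 0.0257%. HOXA10 came closest, at 1.60-fold in all rams (log2 0.68 ± 0.14, unadjusted p = 0.000135, adjusted p = 0.107), and its tip value exceeded its mid-tail value in 7 of 7 rams (exact sign-flip p = 0.0156). At an unadjusted p below 0.05 this step had 2 of 10 members in A/A (HOXA10 and HOXA13), against 4.05% of all genes, 1 in D/D (HOXA10), against 3.68%, and 1 in all rams (HOXA10), against 5.37%. HOXA13 was 1.72-fold higher at the tip than at the mid-tail in A/A and 1.14-fold higher in D/D, and whether the genotypes differ in that step was not tested.

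Groups were separate at the mid-tail against the base for HOXA13 in A/A, where 0.792% of all genes were higher without overlap, for HOXA11 and HOXA13 in D/D, where 6.87% were, and for HOXA13 in all rams, where 0.0463% were. In the exact sign-flip test at this step HOXA5, HOXA6, HOXA10, HOXA11 and HOXA13 reached p = 0.0156, with 7 of 7 rams higher at the mid-tail, and HOXA9 reached p = 0.0312 with 6 of 7.

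No HOXA gene was called different between the genotypes at any position. The paper holds that mid-tail and tip should not be set directly against each other across genotypes, because both lie farther from the base in D/D. At these positions genotype and distance from the base cannot be told apart. The test called 0 of 10 members at each position, and over all genes it called 0% for the base, 0% for the mid-tail and 0% for the tip. At an unadjusted p below 0.05 there were 0 members at the base, against 3.20% of all genes, 1 at the mid-tail (HOXA6), against 5.63%, and 1 at the tip (HOXA6), against 10.2%. HOXA6 had 8.92 to 15.2 CPM in A/A and 3.15 to 6.01 CPM in D/D at the mid-tail, and 8.09 to 18.5 CPM in A/A and 5.77 to 6.75 CPM in D/D at the tip. These ranges did not overlap, and A/A was 2.23-fold above D/D at the mid-tail (log2 1.16 ± 0.33 SE, adjusted p = 0.848) and 2.07-fold above it at the tip (log2 1.05 ± 0.29, adjusted p = 0.458). The exact permutation test of HOXA6 over all 35 assignments of genotype gave p = 0.0286 at the mid-tail, the smallest it can give, and p = 0.0571 at the tip, two-sided, among 30 such tests. The lowest D/D mid-tail value (3.15 CPM, ram 871869) came from library 1 alone, the lower library for HOXA6 in every D/D pair.

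Groups of A/A and D/D rams were separate for 0 of 10 members at the base, where 4.69% of all genes were, for HOXA6 and HOXA13 at the mid-tail, where 8.06% were, and for HOXA3, HOXA4 and HOXA6 at the tip, where 15.1% were. At the mid-tail HOXA13 was the member that lay lower in A/A, with 1.99 to 4.07 CPM in A/A and 4.12 to 4.55 CPM in D/D (0.686-fold, 2 SE on either side giving 0.420 to 1.12, adjusted p = 0.859). At the tip HOXA3 had 4.89 to 6.50 CPM in A/A and 2.35 to 4.88 CPM in D/D, and HOXA4 had 5.35 to 7.13 CPM in A/A and 2.65 to 4.82 CPM in D/D. At the tip HOXA13 itself was close in both genotypes, 1.01-fold in A/A over D/D with an interval of 0.588 to 1.75, which leaves room for a difference in either direction.

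**Figure D4:**
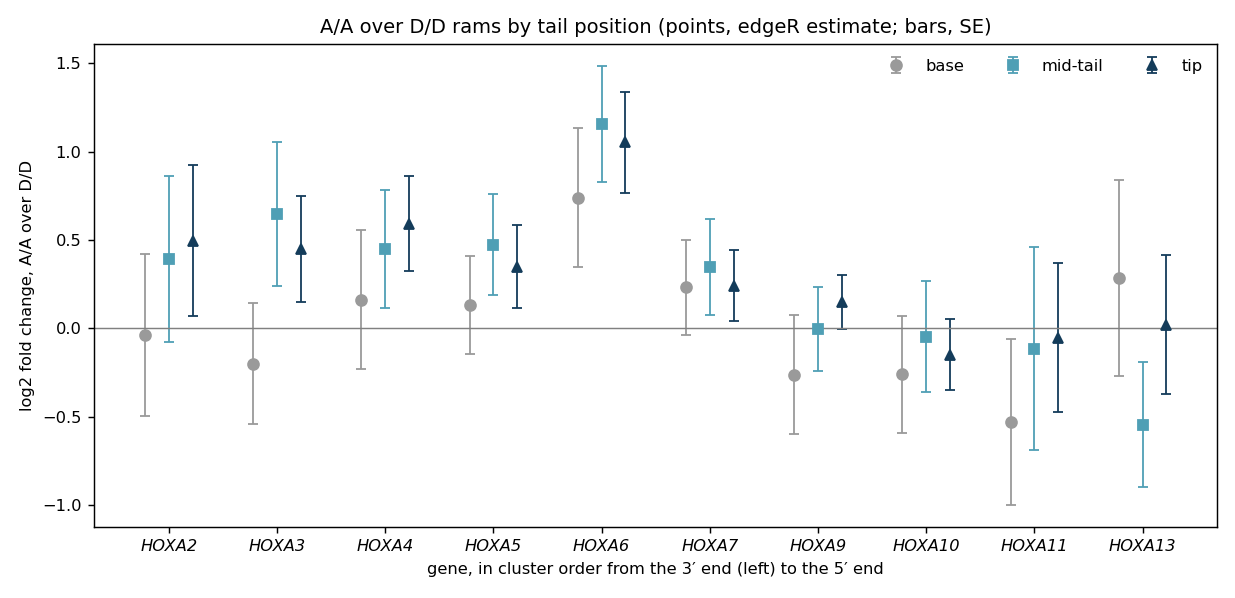
Log2 fold-change ± 1 standard error of A/A over D/D for the 10 HOXA genes in cluster order, by position (4 A/A and 3 D/D rams). No point passed an adjusted p of 0.05; HOXA6 has the largest estimates at the mid-tail (1.16) and the tip (1.05).

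The change along the tail was also compared between the genotypes directly, as the A/A change minus the D/D change. The unequal distance from the base applies here too. No member passed at the tip or at the mid-tail, and of all genes 0% passed for the tip and 0% for the mid-tail. At an unadjusted p below 0.05 only HOXA3 was below the threshold in each, against 6.11% of all genes at the tip and 5.21% at the mid-tail. The difference for HOXA3 was log2 0.67 ± 0.31 (SE, adjusted p = 0.789) at the tip and 0.86 ± 0.31 (adjusted p = 0.884) at the mid-tail. For HOXA13 it was -0.22 ± 0.50 (adjusted p = 0.950) at the tip and -0.80 ± 0.51 (adjusted p = 0.884) at the mid-tail. The 4 members called in A/A and not in D/D at the tip (HOXA5, HOXA6, HOXA9 and HOXA11) had differences of 0.15 ± 0.26, 0.34 ± 0.36, 0.45 ± 0.32 and 0.61 ± 0.51, so a difference between the genotypes in these genes was not shown.

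The make-up of the HOXA counts moved along the tail. HOXA10, HOXA11 and HOXA13 together made up a median of 9.12% of the counts of the 10 genes in the 7 base samples (7.34% to 13.8%), 12.6% in the mid-tail samples (7.003% to 15.0%) and 15.3% in the tip samples (11.9% to 22.4%). Ranges of tip and base overlapped, and these shares depend on gene length. The 10 genes together had 96.4 to 210 CPM at the tip, against 57.3 to 121 CPM at the base, here without the scaling for composition.

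Adjacent members correlated to unequal degrees over the 21 ram sums once each ram's mean was removed. On log2 CPM, Pearson's r was 0.93 for HOXA5 with HOXA6, 0.87 for HOXA10 with HOXA11, 0.87 for HOXA11 with HOXA13 and 0.74 for HOXA9 with HOXA10. It was 0.71 for HOXA2 with HOXA3, 0.61 for HOXA3 with HOXA4, 0.55 for HOXA6 with HOXA7, 0.51 for HOXA7 with HOXA9 and 0.37 for HOXA4 with HOXA5. HOXA6 and HOXA9, on either side of HOXA7, had r = 0.87. The ram sums share animals and positions, and HOXA5 and HOXA6 share the annotated span of HOXA3, so these are descriptions. Among 12925 genes with a mean of at least 1 CPM, those most like HOXA13 in this measure were HEY2, a Notch target (r = 0.979), PRG4, the joint lubricant lubricin (r = 0.943), LTBP1, which binds latent TGF-beta (r = 0.921), the lipocalin APOD (r = 0.916) and the laminin chain LAMA2 (r = 0.908). Those most like HOXA11 were COL6A5 (r = 0.916), CLSTN2 (r = 0.898), NDNF (r = 0.893), ADAMTS6 (r = 0.890) and KLHDC9 (r = 0.880). HOXA10 was most like the netrin receptor UNC5C (r = 0.935), followed by LONRF2 (r = 0.913), MAP6 (r = 0.905), SCUBE3 (r = 0.901) and CLSTN2 (r = 0.899). HOXA5 was most like HOXA6, then CMTM4 (r = 0.870), NAPB (r = 0.859), HOXA9 (r = 0.852) and ATP2B4 (r = 0.837).

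Genes beside and within the cluster were followed from SKAP2, past HOXA2, to EVX1, past HOXA13. The long non-coding gene LOC105606592, which overlaps HOXA13, had 1.19, 2.24, 1.52 and 3.14 CPM at the tip and 0.353, 0.373, 0.0617 and 0.607 CPM at the base in A/A rams, and 1.19, 1.64 and 1.73 CPM at the tip and 0.246, 0.955 and 0.278 CPM at the base in D/D rams. It rose with HOXA13: log2 2.17 ± 0.35 (SE) in all rams (adjusted p = 0.0024), 2.66 in A/A (adjusted p = 0.0108) and 1.67 in D/D (adjusted p = 0.158). Reads were counted by strand, but the strands of LOC105606592 and HOXA13 are not given here. The split of their reads in the shared stretch is therefore uncertain. LOC121819410, which overlaps HOXA10, had a log2 change of 0.32 (adjusted p = 0.360) in all rams. LOC132659741, in the span of HOXA3, HOXA5 and HOXA6, had 0.57 (adjusted p = 0.180).

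Genes flanking the cluster were not called. SKAP2, an adaptor protein gene of immune cells, had a log2 change of -0.26 at the tip in all rams (adjusted p = 0.355). EVX1, a homeobox gene beyond HOXA13, had 7 counts over all libraries and was not tested. None of the 8 flanking genes tested passed in all rams, where 4.52% of all genes did. SKAP2 averaged 43.5 CPM in A/A and 22.02 CPM in D/D at the tip, a log2 difference of 0.99 (adjusted p = 0.458) that did not pass.

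Genes of the other HOX clusters were set beside the members by paralog group, since genes of one group in different clusters descend from one ancestral gene. In all rams at the tip against the base, 1.89% of all genes were called higher and 2.62% lower. There, 3 of 10 tested HOXB, HOXC and HOXD genes of groups 9 to 13 rose and none fell. They were HOXB13 (log2 6.40 ± 0.65 SE), HOXC10 (1.35 ± 0.15) and HOXC11 (1.13 ± 0.22, adjusted p = 0.008). Of 13 tested genes of groups 1 to 8, none rose and 2 fell, HOXC5 (-0.92 ± 0.13, adjusted p = 0.001) and HOXC6 (-0.71 ± 0.13, adjusted p = 0.006), while HOXA5 and HOXA6 of the same groups rose. HOXA9 rose while HOXB9 had -0.45, which did not pass. The medians of the HOXB, HOXC and HOXD lists were 0.07 for groups 9 to 13 and 0.05 for groups 1 to 8, beside 0.68 for the HOXA members and -0.02 for all genes. HOXB13, the gene by which the rams were genotyped, averaged 4.86 CPM in A/A and 0.60 CPM in D/D at the tip, and 1.83 CPM in A/A and 0.10 CPM in D/D at the mid-tail.

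**Figure D5:**
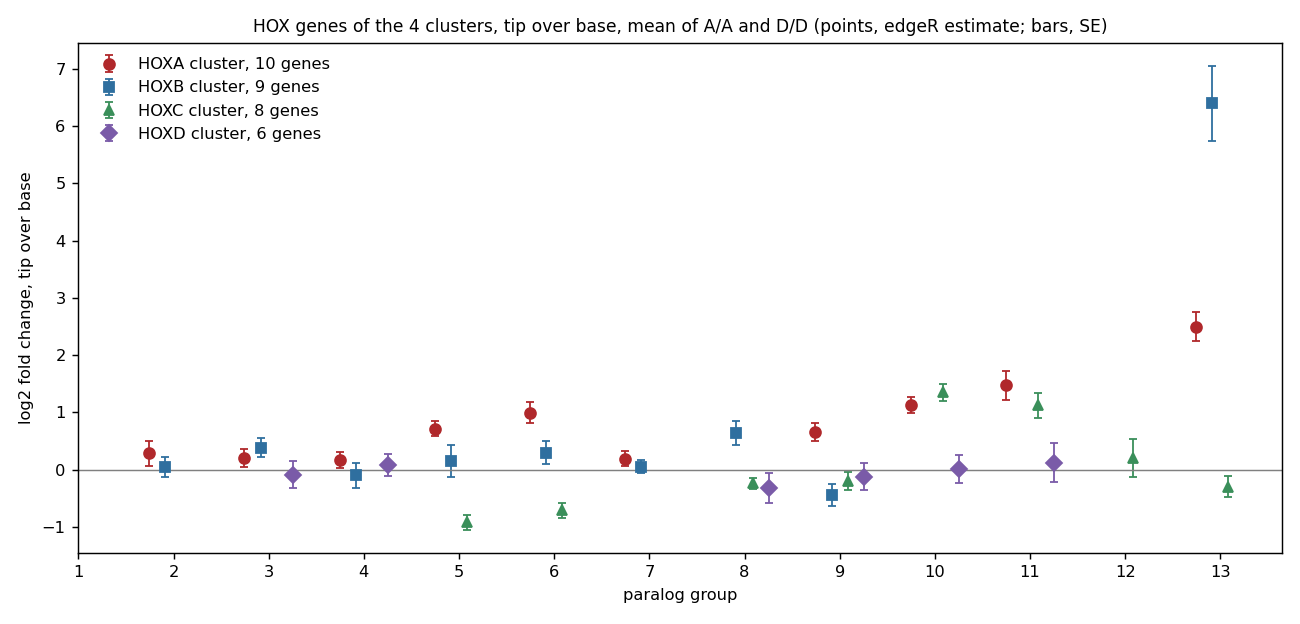
Log2 fold-change ± 1 standard error at the tail tip over the tail base in all rams (n = 7) for 10 HOXA, 9 HOXB, 8 HOXC and 6 HOXD genes, by paralog group (horizontal axis) and cluster (marker). All 10 HOXA estimates lie above 0, whereas HOXC5 (-0.92) and HOXC6 (-0.71) lie below it and HOXB13 has the largest estimate (6.40).

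Regulators and partners of HOX genes were set beside the members in the same comparison, in which 4.52% of all genes were called in either direction. Of 9 HOX cofactor genes of the PBX, MEIS and PKNOX families, which bind DNA together with HOX proteins, none rose and PKNOX2 fell (log2 -0.54, adjusted p = 0.033), and MEIS1 (0.30), MEIS2 (0.28) and PBX3 (0.23) did not pass. None of 22 Polycomb and trithorax genes, which keep HOX genes off or on, was called, with KDM6A at 0.31, CBX2 at -0.37 and PHC1 at -0.37. Of 14 retinoic acid genes, the pathway that switches on the early HOX genes in the embryo, ALDH1A3, an enzyme that makes retinoic acid, fell (-0.65 ± 0.10 SE, adjusted p = 0.002) and none rose. STRA6 (-0.81), DHRS3 (-0.41) and RARB (-0.41) did not pass. Of 9 CDX and axial regulators 3 were tested and none passed, GDF11 (0.62), NR6A1 (0.23) and PRTG (0.24).

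Some cell type markers also changed along the tail. In all rams at the tip against the base, where 2.62% of all genes were called lower and 1.89% higher, 3 of 10 fibroblast markers fell (FBLN1, COL3A1 and COL1A1) and none rose, and the summed level of the list was 3619.56 to 13259.1 CPM at the tip and 13517.8 to 21492.4 CPM at the base in A/A. Without ram 835507 it was 9438.75 to 13259.1 CPM at the tip and 15840.4 to 21492.4 CPM at the base in A/A. In D/D it was 6028.51 to 13164.5 CPM at the tip and 10608.8 to 17546.7 CPM at the base. Of 9 keratinocyte markers 2 rose (DSG3 and KRT1), and the list summed to 26520.8 to 41679.0 CPM at the tip and 15744.6 to 31158.4 CPM at the base in A/A and to 23891.2 to 45937.3 CPM at the tip and 15960.5 to 25958.9 CPM at the base in D/D. Of 8 tested tendon, cartilage and bone markers 2 rose (COMP and TNMD), with 169.2 to 193.4 CPM at the tip and 104.7 to 183.3 CPM at the base in A/A and 177.4 to 189.8 CPM at the tip and 134.8 to 176.1 CPM at the base in D/D, and with the bone marker IBSP at 0. Among the other lists, 2 of 7 adipocyte markers fell (CIDEC and ADIPOQ), as did the Schwann cell marker MBP, DCT of 6 melanocyte markers and SHH of 9 wool follicle markers. The part of these markers in the HOXA differences was not tested.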

How the data were processed

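Tail skin RNA (CorALL kit after oligo(dT) bead selection) was mapped by the authors with ContextMap and BWA to ARS-UI_Ramb_v3.0 and counted per RefSeq gene and strand with featureCounts, after FastQC 0.11.9, per the labels and the study's methods. The deposited values are raw counts per gene, whole numbers throughout; for a check of units alone the deposited tip columns were entered under estimated counts, and no value was rounded. The study's methods name 3 A/A rams for sequencing, whereas its supplement and the labels list 4, and all 4 were used. Libraries held 9177395 to 23431409 counts; precision is limited by the 7 rams. Libraries of one ram and position were added. Counts were tested with edgeR 4.0.16 (R 4.3.3): TMM scaling, filterByExpr, quasi-likelihood fit, Benjamini-Hochberg adjustment over all genes tested and a call at adjusted p below 0.05. Positions were fitted over 21 ram sums with the ram as a block (19444 genes) and genotypes within each position (17738 genes at the base, 17996 at the mid-tail, 17842 at the tip). Samples of one ram come from the same animal; 20 of 21 pairs of positions deviated together (correlation over 0.1, median 0.473). CPM used TMM-scaled totals, and exact tests used log2(CPM + 0.5). All 10 members are named; from other lists, the called genes and up to 4 genes of smallest p in all rams, a few of which are not reported here; and per likeness search the 5 named genes of highest r. The members and lists were chosen with earlier results of these data known. Alternatives were DESeq2 1.42.0, single libraries, other filters, scalings, pseudocounts and thresholds, no block, one library per pair, and each ram left out. Scripts were tested on simulated data.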

Additional observations from a re-analysis of the deposited data

Results flagged for a closer look

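The 30 groups of 4 A/A rams (10 members at 3 positions) were screened for a single ram far from the others, by the gap of the highest or lowest ram to its neighbour over the range of the group on log2(CPM + 0.5), for which chance gives about 1 such group in 20. At the A/A mid-tail the highest ram, 835507, stood off for HOXA4 (7.85 CPM, against 4.37 to 4.81 CPM in the other 3 A/A rams, a gap of 0.840 of the range on the log2 scale). It also stood off for HOXA9 (83.1 CPM, against 52.2 to 56.5 CPM, a gap of 0.829 of the range on the log2 scale, just at the critical value of 0.829). Without ram 835507 neither gene was called at the A/A mid-tail, as with it.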

How the results depend on the processing

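Of 241 alternatives over 14 counts of called members, 200 stayed within 1.5 times the count given, and none of the single-gene differences that were called changed sign. Most of the 14 counts were 0, and a count that stayed at 0 was scored as unchanged. The 200 therefore say little about the counts above 0. With the ram block removed, 1 member (HOXA13) was called at the A/A tip against the base, 0 in D/D and 2 in all rams, against 6, 2 and 6 with it. With library 1 only there were 3 at the A/A tip and 1 for the D/D tip, and with library 2 only 1, 0 and, in all rams, 3, with 0 at the mid-tail of all rams. With each genotype fitted on its own, 2 members were called at the A/A tip and 1 in the D/D mid-tail comparison. At an adjusted p of at most 0.01 with an absolute log2 fold-change over 1, 2 were called at the A/A tip, 1 in D/D and 3 in all rams. Leaving out 1 ram gave 3 to 5 at the A/A tip, 0 to 2 at the D/D tip and 3 to 6 in all rams. Tests that treat single libraries as samples made more calls. With single libraries in edgeR there were 5 at the A/A mid-tail, 4 at the D/D tip, 1 at the D/D mid-tail, 6 at the mid-tail of all rams and 1 at the tip against the mid-tail of all rams. DESeq2 with the design of the study on single libraries gave 7, 4, 1, 6 and 1 in these comparisons, 1 at the A/A tip against the mid-tail, and 3 (HOXA3, HOXA5 and HOXA6) and 2 (HOXA5 and HOXA6) for A/A over D/D at the mid-tail and the tip. DESeq2 on ram sums called 2 at the A/A mid-tail, 1 at the D/D mid-tail, 4 at the mid-tail of all rams and 1 (HOXA10) at the tip against the mid-tail of all rams. Without a filter on low counts and with library 1 only, 1 (HOXA13) was called at the D/D mid-tail. The cause of these differences was not tested. Depth limited HOXA13 most at the base, where a ram sum held as few as 8 counts.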
